A study of Mus musculus with 6 samples.

Results

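Transcripts of mitochondrial fatty acid oxidation were examined in whole mammary fat pads of 3 wild-type (WT) mice and 3 mice lacking Pxmp2, a channel protein of the peroxisomal membrane. The list held 34 genes, chosen for their roles in the carnitine shuttle, the acyl-CoA dehydrogenases, the later steps of the beta-oxidation spiral, electron transfer, fuel switching and ketone body use. A probe set was counted to a gene when the platform annotation gave it exactly 1 symbol. By this rule 32 of the 34 genes, among 18193 named genes in all, were represented by 59 of 45037 probe sets. Cpt1b and Ucp2 were not analysed here. Of the 59 probe sets, 55 had a mean level above the filter (an intensity of 59.1 arbitrary units) and were tested, and they covered 31 genes.

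All 6 animals were females of the C57BL/6J background, of genotype Pxmp2-/- or wild type. Ovaries were removed at 21 days of age, and at 31 days estradiol was injected in every mouse to set a common start of puberty. Fat pads 4 and 9 were collected 8 h later, and their total RNA was hybridised to Affymetrix arrays, each read as fluorescence intensity in arbitrary units. With 3 arrays of each genotype, their number limits how precise any value can be. The sources used here do not say how the Pxmp2 allele was disrupted or whether littermates were used.

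Beta-oxidation shortens fatty acids in the mitochondrial matrix. Long-chain acyl groups enter as carnitine esters, through the outer membrane transferase CPT1, the translocase SLC25A20 and the inner transferase CPT2. Dehydrogenases matched to chain length then take electrons from the acyl-CoA and pass them through the flavoprotein ETF and its dehydrogenase to ubiquinone, and the spiral ends in acetyl-CoA. White adipocytes mainly store fatty acids, whereas brown adipocytes burn them for heat and are rich in these enzymes. Peroxisomes shorten very long chains and hand the products over to mitochondria.

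The trifunctional protein, which carries out the last steps of the spiral for long chains, is made of an alpha subunit encoded by Hadha and a beta subunit encoded by Hadhb. These genes lie head to head on mouse chromosome 5, and both were measured, so their start regions are shown. The RefSeq windows (build GRCm38.p6) run from 250 bases before to 50 bases after each gene's start. That of Hadha is chr5:30154931-30155230 on the minus strand, and that of Hadhb is chr5:30155003-30155302 on the plus strand. The starts lie 273 bases apart, and capitals mark the 228 bases that both windows hold, read from opposite strands.
Hadha: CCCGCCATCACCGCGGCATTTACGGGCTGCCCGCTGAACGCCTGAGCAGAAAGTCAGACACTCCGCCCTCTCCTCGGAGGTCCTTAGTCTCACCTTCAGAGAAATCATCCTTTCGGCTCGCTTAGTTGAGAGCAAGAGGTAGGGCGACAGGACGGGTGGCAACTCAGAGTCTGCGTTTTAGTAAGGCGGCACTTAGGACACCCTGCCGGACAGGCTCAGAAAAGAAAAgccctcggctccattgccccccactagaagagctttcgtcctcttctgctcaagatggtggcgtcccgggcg
Hadhb: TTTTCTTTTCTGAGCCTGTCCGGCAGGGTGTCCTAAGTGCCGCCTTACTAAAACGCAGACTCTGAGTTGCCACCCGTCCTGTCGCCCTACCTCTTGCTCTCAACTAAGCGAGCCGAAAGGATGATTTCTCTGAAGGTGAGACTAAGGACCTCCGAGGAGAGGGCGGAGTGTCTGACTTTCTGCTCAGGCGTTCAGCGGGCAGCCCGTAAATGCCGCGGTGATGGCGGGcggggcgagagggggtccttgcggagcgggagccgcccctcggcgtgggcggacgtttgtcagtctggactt

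RefSeq windows of this kind were used for 29 of the 34 genes (31 windows; the others were not analysed here), and were searched on both strands for elements bound by nuclear receptors of fat metabolism. The direct repeat 1 element, which is 2 copies of AGGTCA with any 1 base between them and is bound by PPAR dimers, occurred in 0 of the 31 windows and in 0.0396% of all 32851 windows. The element TCAAGGTCA of the estrogen-related receptors also occurred in 0 of 31, against 0.423% of all windows. Both are so rare among all windows that finding 0 in 31 does not set the members apart. Only exact letters within these short windows were searched, so the absence of such elements elsewhere or in varied form is not shown. The core AGGTCA, which both elements contain, was present in 6 of 31 windows (19.4%) against 16.3% of all. Those 6 belonged to Cpt1a, Cpt1c, Acadvl, Acadm, Echs1 and Ucp3. The windows of Cpt1a (chr19:3323051-3323350, plus strand), the entry gate of the pathway, and of Acadm (chr3:153944594-153944893, minus strand), the medium-chain dehydrogenase, are shown with the core in capitals, in both cases in its reverse reading TGACCT. Such a match is a description of the letters and not a sign of binding.
Cpt1a: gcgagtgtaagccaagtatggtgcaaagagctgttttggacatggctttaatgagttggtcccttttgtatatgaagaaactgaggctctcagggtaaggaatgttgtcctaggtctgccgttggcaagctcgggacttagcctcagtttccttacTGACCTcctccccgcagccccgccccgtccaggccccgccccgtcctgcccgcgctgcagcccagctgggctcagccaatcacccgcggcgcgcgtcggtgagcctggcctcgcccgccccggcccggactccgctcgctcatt
Acadm: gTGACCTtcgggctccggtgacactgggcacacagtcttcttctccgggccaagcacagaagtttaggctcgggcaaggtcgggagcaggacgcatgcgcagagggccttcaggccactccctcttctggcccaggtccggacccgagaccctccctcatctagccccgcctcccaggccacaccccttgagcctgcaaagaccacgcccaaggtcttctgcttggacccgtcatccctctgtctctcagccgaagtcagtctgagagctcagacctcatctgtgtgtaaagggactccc

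The genotype labels were checked on Pxmp2 itself. Its probe set read 2643, 2465 and 2797 in the WT mice and 308, 262 and 260 in the Pxmp2-/- mice, without overlap, a log2 difference of -3.18 ± 0.10 (SE, limma adjusted p = 6.14e-05). Array medians lay between 98.5 and 105 and array maxima between 20504 and 22654. Adipocyte markers were bright, with Adipoq at a mean of 16119 ± 847 (SD, n = 3) in WT mice and of 15848 ± 697 (SD, n = 3) without Pxmp2. Of 7 mammary epithelial markers, 6 were below the level filter. Summed macrophage markers were higher in every Pxmp2-/- mouse (9085 to 11542) than in any WT mouse (7456 to 8101). Of these markers 5 of 7 had higher means, while Mrc1 and Cd163 had log2 differences of -0.19 and -0.02. Summed endothelial markers were lower (11171 to 12773 against 13840 to 14955), though 1 of 5, Pecam1, was at 0.05. The part of both marker lists in the member values was not tested. In such whole-tissue RNA, fewer cells of a type and less RNA per cell cannot be told apart. Over all 27022 tested probe sets, 17 (0.0629%) passed an adjusted p of 0.05 between genotypes.

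No fatty acid oxidation gene passed that threshold. The count was 0 of 55 tested probe sets with limma, and the smallest adjusted p was 0.217, for Acads. At an unadjusted p under 0.05 there were 9 (16.4%), close to the 16.6% of all tested probe sets. Of these, 4 were higher and 5 lower in Pxmp2-/- mice, where 6.12% of all probe sets were higher and 10.5% lower. The groups did not overlap in 11 (20%), against 22.8% of all, and 5 of these were higher (7.73% of all) and 6 lower (15.1% of all). The 95% confidence interval (not adjusted) lay wholly within a 1.5-fold difference in either direction for 47 of the 55 probe sets, and within 2-fold for 53. Differences are given as Pxmp2-/- minus WT on the log2(intensity + 16) scale, which understates changes of dim transcripts. The plot of all tested probe sets shows the intervals grouped around 0.

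**Figure D1:**
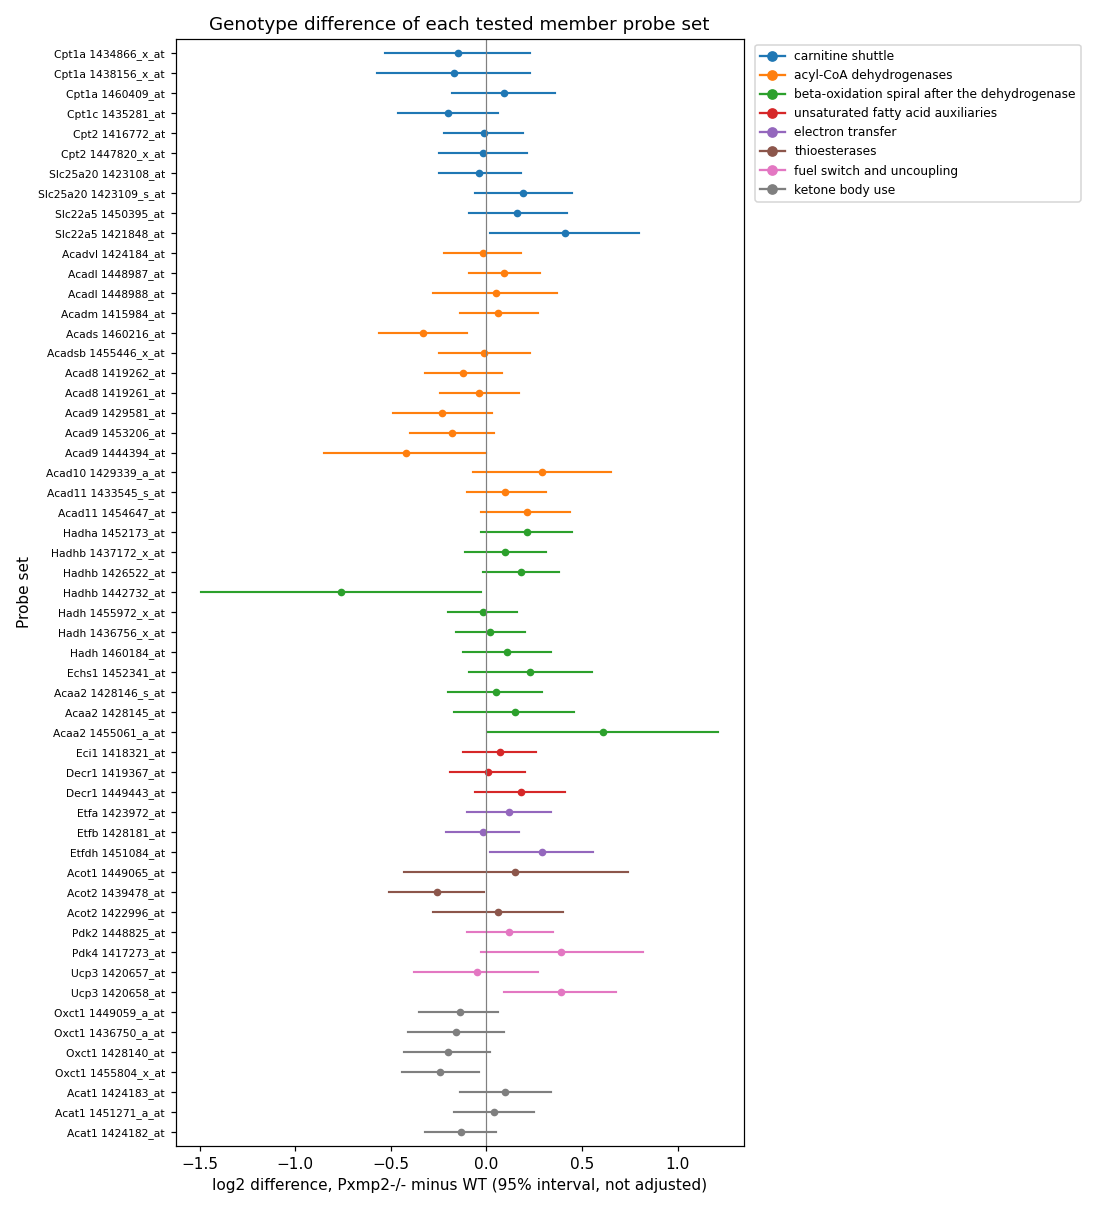
Log2 difference between Pxmp2-/- and WT mice (x axis, log2 of intensity + 16) for each of the 55 tested probe sets (y axis), coloured by role, with points for the estimate and bars for the unadjusted 95% interval of limma. Most points lie near 0, the widest bar is that of Hadhb 1442732_at at -0.76, and Acads at -0.33 is among the few whose bar does not reach 0.

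With the highest-reading probe set standing for each gene, 17 of 31 genes (54.8%) were above 0 and 14 below. Among all 12775 named genes tested, 41.7% were above 0. The median difference was 0.048 for the 31 genes and -0.034 for all genes. After quantile normalization, 19 of 31 (61.3%) lay above 0 against 50.8% of all genes, and the medians were 0.057 and 0.0027. At an unadjusted p under 0.05 the split of all probe sets was 1655 higher and 2842 lower, and 2130 and 2128 after quantile normalization, where the members gave 5 higher and 3 lower. The members' split, 4 higher and 5 lower in the values as deposited, turned with the scaling, the weighting of arrays and the mice used. Median centring gave 1 higher and 5 lower, where all probe sets gave 1472 and 3333. Array weights gave 11 higher and 4 lower, where all probe sets gave 2066 and 3590. The count of 9 changed with single mice left out, as did that of all probe sets (4497 with every mouse in). It was 4, 9 and 3 without WT 1, 2 and 3, where all probe sets gave 3864, 3931 and 2986. Without Pxmp2-/- 1, 2 and 3 it was 13, 3 and 3, where all gave 5600, 3210 and 3066. Those 13 without Pxmp2-/- 1 were 11 higher and 2 lower, where all probe sets gave 1972 and 3628. The median over the genes was 0.023 without WT 1, 0.093 without Pxmp2-/- 1, 0.0047 without Pxmp2-/- 2 and 0.028 without Pxmp2-/- 3.

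In the carnitine shuttle, 5 genes with 10 probe sets were tested, none past the adjusted threshold and 1 at an unadjusted p under 0.05. Cpt1a makes the liver-type form of the transferase that malonyl-CoA inhibits. Its probe set 1434866_x_at read 590, 700 and 823 in WT mice and 772, 566 and 567 in Pxmp2-/- mice. The groups overlapped, and the difference was -0.15 ± 0.16 (SE, adjusted p = 0.664). The other probe sets of Cpt1a differed by -0.17 and 0.09. Cpt2, which re-forms acyl-CoA inside, read 7785, 8284 and 8143 in WT and 7426, 8453 and 8145 in Pxmp2-/- mice. These values interleaved, at -0.01 ± 0.09 with an interval from -0.22 to 0.19. The carnitine-acylcarnitine translocase gene Slc25a20 differed by -0.04 and 0.19 in its 2 probe sets.

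Slc22a5 encodes OCTN2, the carnitine transporter of the plasma membrane. Its probe set 1421848_at read 167, 192 and 218 in WT mice and 201, 272 and 317 in Pxmp2-/- mice. Pxmp2-/- 1 lay inside the WT range and the other two above it, at 0.41 ± 0.17 (adjusted p = 0.287). Probe set 1450395_at gave 1081, 1167 and 1202 against 1124, 1344 and 1413, with the same mice on top, at 0.16 ± 0.11. Cpt1c, the brain-type relative that is thought to lack much transferase activity, read 108, 88.6 and 95.8 in WT and 72, 82.5 and 94.3 in Pxmp2-/- mice, at -0.20 ± 0.11 with overlap.

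The 9 acyl-CoA dehydrogenase genes had 14 tested probe sets, none past the adjusted threshold, 2 lower and 0 higher at an unadjusted p under 0.05. The dehydrogenases for very long, long and medium chains were nearly level. Acadvl, for very long chains, read 9556, 9955 and 9242 in WT and 8986, 9915 and 9453 in Pxmp2-/- mice, at -0.02 ± 0.08. Acadl, for long chains, read 12453, 12898 and 12495 against 12962, 13761 and 13691. The groups were apart, but by 0.09 ± 0.08, with an interval from -0.09 to 0.28. Acadm gave 12193, 13754 and 12793 against 12911, 13788 and 13743, at 0.06 ± 0.09 with overlap.

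Acads, which encodes the short-chain dehydrogenase, had the smallest p among the members. Its probe set 1460216_at read 2984, 3531 and 3075 in WT mice and 2529, 2684 and 2382 in Pxmp2-/- mice. Every Pxmp2-/- mouse lay below every WT mouse. The means were 3197 ± 293 and 2532 ± 151 (SD, n = 3 each), a difference of -0.33 ± 0.10 or 1.26-fold, with an interval from -0.56 to -0.10 and an adjusted p of 0.217. Over 17 other settings it ranged from -0.38 to -0.26, with adjusted p from 0.145 to 0.427.

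Acad9, a dehydrogenase that also serves in the assembly of respiratory complex I, gave lower means in all 3 of its probe sets. Probe set 1429581_at read 1275, 1664 and 1525 in WT and 1217, 1280 and 1282 in Pxmp2-/- mice, with WT 1 inside the Pxmp2-/- range, at -0.23 ± 0.11. The others differed by -0.18 ± 0.10 and -0.42 ± 0.18 (adjusted p = 0.374 and 0.3). Acad10 had means in the other direction. It read 413, 409 and 393 in WT and 419, 645 and 456 in Pxmp2-/- mice, apart by little in Pxmp2-/- 1 and by more in Pxmp2-/- 2, at 0.29 ± 0.15 (adjusted p = 0.38). Acad11, which prefers very long chains, differed by 0.10 and 0.21. The branched-chain dehydrogenases of valine and isoleucine breakdown were close to level, Acad8 at -0.12 and -0.04 and Acadsb at -0.01.

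**Figure D2:**
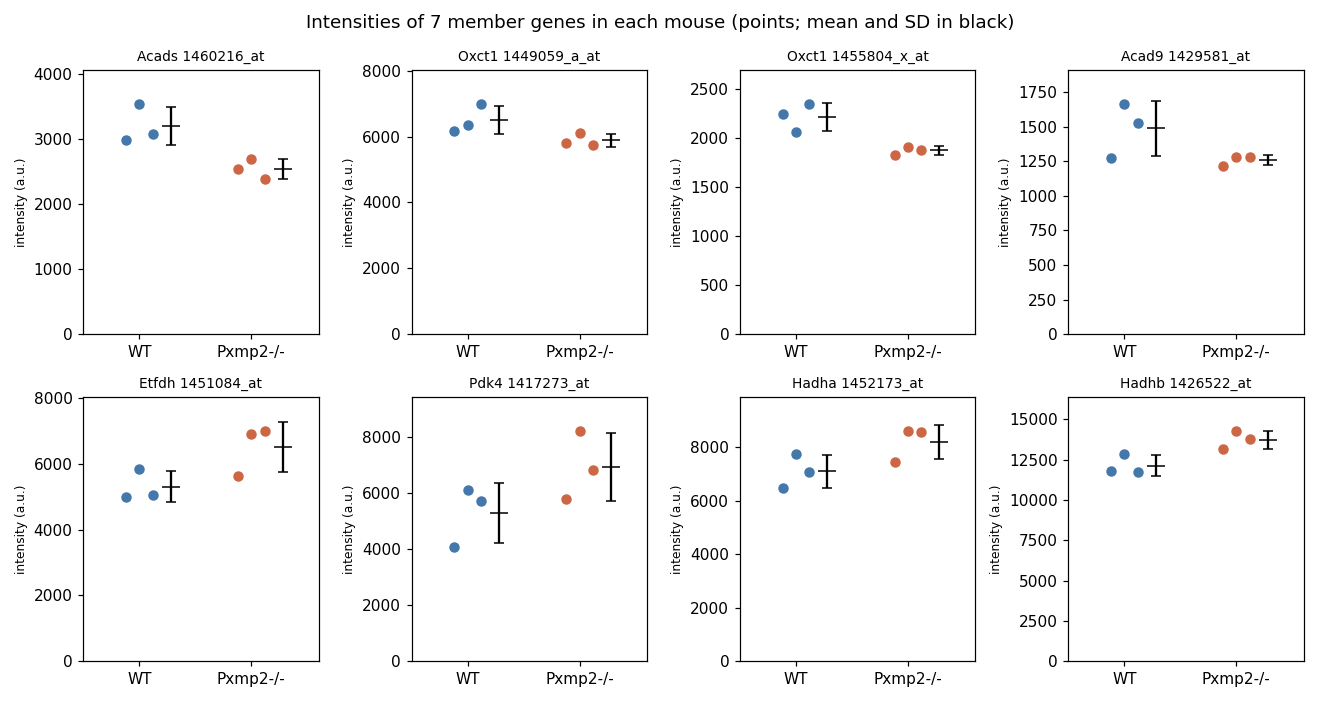
Intensities (y axis, arbitrary units, from 0) of 8 probe sets of 7 genes in each mouse, with WT in blue, Pxmp2-/- in orange and the mean with SD of 3 mice in black. Acads and the plotted Oxct1 probe sets separate the genotypes downward, Hadhb 1426522_at separates them upward, and Acad9, Etfdh, Pdk4 and Hadha overlap.

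After the dehydrogenase step, 5 genes with 11 probe sets were tested, again with 0 past the adjusted threshold. The subunits of the trifunctional protein, whose shared start region is printed above, had higher means in 3 of their 4 probe sets. Hadha read 6493, 7739 and 7076 in WT and 7461, 8589 and 8552 in Pxmp2-/- mice, at 0.21 ± 0.10 (adjusted p = 0.351). Pxmp2-/- 1 lay inside the WT range and the other two above it. Hadhb probe set 1426522_at read 11810, 12883 and 11716 against 13161, 14260 and 13802, without overlap, at 0.18 ± 0.09 (adjusted p = 0.332). Its probe set 1437172_x_at differed by 0.10 ± 0.09.

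A further Hadhb probe set went the other way and was more variable. Probe set 1442732_at read 348, 703 and 911 in WT and 363, 407 and 296 in Pxmp2-/- mice, at -0.76 ± 0.32 (adjusted p = 0.288). WT 1 lay among the Pxmp2-/- mice, so the gap rested on WT 2 and WT 3.

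The thiolase gene Acaa2, which cuts off acetyl-CoA, also differed between probe sets. Its probe set 1455061_a_at read 1652, 2568 and 1886 in WT and 2094, 3377 and 4089 in Pxmp2-/- mice, with Pxmp2-/- 1 again inside the WT range, at 0.61 ± 0.26 (adjusted p = 0.293). The remaining 2 probe sets differed by 0.05 ± 0.11 and 0.15 ± 0.14. Echs1, the short-chain enoyl-CoA hydratase, read 5941, 6744 and 5638 in WT and 5905, 8061 and 7706 in Pxmp2-/- mice, at 0.23 ± 0.14. Hadh, the hydroxyacyl-CoA dehydrogenase, differed by -0.02, 0.02 and 0.11, and its probe set 1455972_x_at (17942 in WT mice) was near the array maxima, where a change may not show. The auxiliaries for unsaturated chains were level or nearly so, with the isomerase gene Eci1 at 0.07 and the dienoyl-CoA reductase gene Decr1 at 0.01 and 0.18.

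Electron transfer had 3 tested probe sets, 1 of them at an unadjusted p under 0.05. Etfdh encodes the dehydrogenase that passes electrons from ETF to ubiquinone. It read 4993, 5843 and 5063 in WT mice and 5619, 6892 and 6978 in Pxmp2-/- mice. Pxmp2-/- 1 lay below WT 2 and the other two above all WT mice. The difference was 0.29 ± 0.12 with an interval from 0.02 to 0.56 (adjusted p = 0.282). The ETF subunit genes Etfa and Etfb differed by 0.12 ± 0.09 and -0.02 ± 0.08.

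Among the thioesterases, which release free fatty acids from acyl-CoA, Acot2 is the mitochondrial and Acot1 the cytosolic enzyme. Acot2 probe set 1439478_at read 924, 1079 and 1185 in WT and 909, 862 and 866 in Pxmp2-/- mice, with the groups just apart, at -0.26 ± 0.11 (adjusted p = 0.284). Its probe set 1422996_at, with a WT mean of 123, differed by 0.06 ± 0.15. Acot1 varied widely in WT mice (359, 174 and 336) and less in Pxmp2-/- mice (286, 284 and 363), at 0.15 ± 0.25. The genes are close copies of each other, so it is uncertain how far their probe sets tell them apart.

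Of the fuel switch and uncoupling genes, 3 were tested with 4 probe sets, 0 past the adjusted threshold. Both pyruvate dehydrogenase kinase genes of the list had higher means in Pxmp2-/- mice. Pdk4, a kinase that turns pyruvate dehydrogenase off and so favours fat over glucose as fuel, read 4070, 6097 and 5733 in WT and 5776, 8203 and 6823 in Pxmp2-/- mice. Pxmp2-/- 1 lay inside the WT range and the other two above it, at 0.39 ± 0.18 (adjusted p = 0.327). Its relative Pdk2 read 1665, 1536 and 1650 against 1676, 1682 and 1945, with the groups just apart, at 0.12 ± 0.09. The mitochondrial carrier gene Ucp3, a relative of the uncoupling protein of brown fat, was split between probe sets. Probe set 1420658_at read 182, 234 and 240 in WT and 258, 310 and 299 in Pxmp2-/- mice, without overlap, at 0.39 ± 0.13 (adjusted p = 0.232). Probe set 1420657_at read 1399, 1596 and 2020 against 1541, 1710 and 1535, at -0.05 ± 0.14.

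Ketone body use had 4 of its 7 tested probe sets separated, all with lower values in Pxmp2-/- mice, where 15.1% of all probe sets were separated that way, and 0 passed the adjusted threshold. Of these 4, 3 were probe sets of 1 gene, Oxct1. Oxct1 encodes SCOT, the enzyme that commits ketone bodies to oxidation, and 4 of 4 probe sets had lower means. Probe set 1449059_a_at read 6159, 6366 and 6985 in WT and 5815, 6112 and 5739 in Pxmp2-/- mice, at -0.14 ± 0.09. Probe set 1455804_x_at read 2242, 2062 and 2343 against 1825, 1908 and 1881, at -0.24 ± 0.09 (adjusted p = 0.254), and 1428140_at read 3602, 4005 and 3554 against 3092, 3525 and 3079, at -0.20 ± 0.10. In these 3 probe sets every Pxmp2-/- mouse was below every WT mouse. The remaining one, 1436750_a_at, overlapped at -0.16 ± 0.11. They read the same RNA samples and are not independent of each other. Acat1, the thiolase that acts on acetoacetyl-CoA, differed by 0.10, 0.04 and -0.13 in its probe sets, the last without overlap. Bdh1, for hydroxybutyrate dehydrogenase, was not tested, since both of its probe sets were dim, with 27.2 to 33.2 in WT and 21.2 to 42.4 in Pxmp2-/- mice in the brighter one.

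Of the 16 member genes with over 1 tested probe set, 9 (56.2%) had the same sign in all of them, against 47.7% of 5749 such genes overall. Those with lower means throughout were Cpt2, Acad8, Acad9 and Oxct1, and those with higher means throughout were Slc22a5, Acadl, Acad11, Acaa2 and Decr1.

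The members tended to share which mouse of a genotype read lowest. Taking for each mouse the median over the 31 genes, relative to the WT mean, WT 1, 2 and 3 stood at -0.07, 0.042 and -0.002 (log2), and Pxmp2-/- 1, 2 and 3 at -0.031, 0.057 and 0.085. Pxmp2-/- 1 was the lowest of its genotype in 23 of 31 genes (74.2%), against 29.3% of all named genes. WT 1 was the lowest WT mouse in 20 of 31 (64.5%), against 35.3%, and WT 2 the highest in 18 (58.1%), against 33.7%. Pxmp2-/- 2 was the highest of its genotype in 21 (67.7%), against 32.8%. The low place of Pxmp2-/- 1 was not particular to the members. Among the mitochondrial acyl-CoA and pyruvate dehydrogenase genes outside the list, by their brightest probe sets, it also read lowest of its genotype in most. Examples were Eci2 (4885, against 5360 and 5167), Pccb (6546, against 6839 and 6849), Ivd (4268, against 5327 and 4607) and Mccc1 (5742, against 6558 and 5829). It was not the lowest for Gcdh, Mmut, Bckdhb, Pdk1, Sirt5 and Pdp1, nor for Pdp2 (473, against 360 and 343). Relative to the WT mice, Pxmp2-/- 1 was inside their range in 17 member genes, below it in 10 and above it in 4. The median over all genes moved between -0.06 and 0.01 in the 6 mice and was lowest in Pxmp2-/- 3, the mouse in which the member median was highest.

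**Figure D3:**
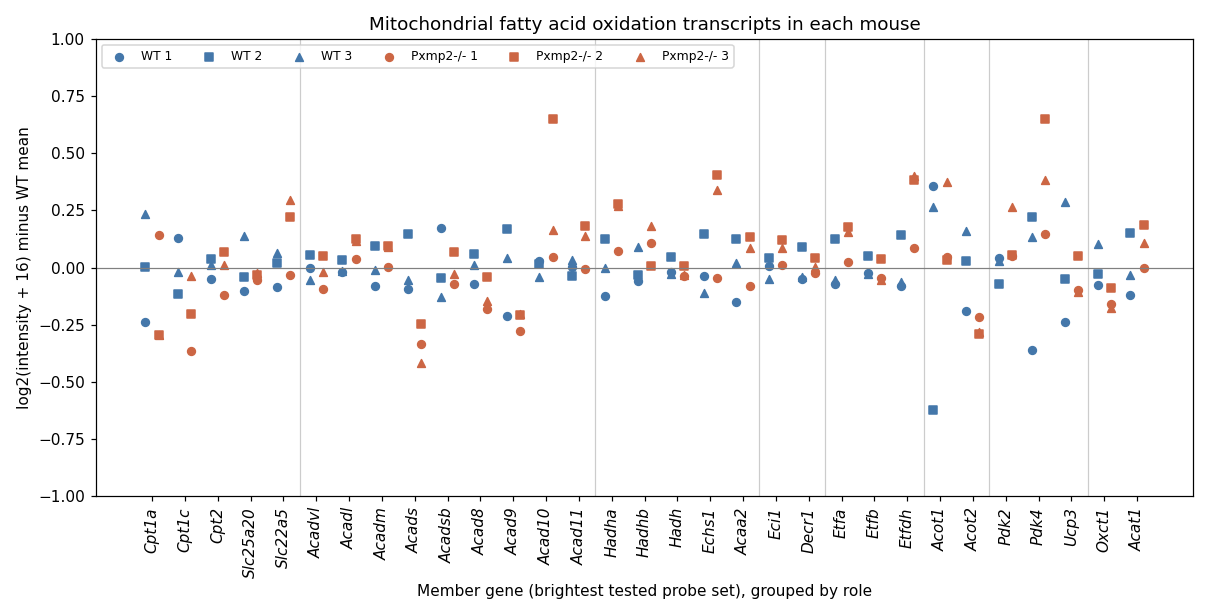
Each member gene (x axis, grouped by role, 1 probe set per gene) in each mouse as log2(intensity + 16) minus the WT mean (y axis), with WT in blue and Pxmp2-/- in orange and a symbol for each mouse number. Pxmp2-/- 1 (orange circles) sits below the other Pxmp2-/- mice in 23 of 31 genes, and all 3 Pxmp2-/- mice lie below all WT mice for Acads.

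Brown adipocyte markers gave a similar order of the mice. The summed intensity of 8 markers was 34169, 42651 and 38704 in WT 1, 2 and 3, and 37683, 44701 and 44255 in Pxmp2-/- 1, 2 and 3. The order of the mice from lowest to highest was the same as for the member median, apart from Pxmp2-/- 2 and 3, which changed places. Pxmp2-/- 1 was the lowest of its genotype in 8 of 8 markers and WT 1 the lowest of its own in 7 of 8. Ucp1, the gene of an uncoupling protein and 1 of these markers, read 7106, 10751 and 10249 in WT and 9357, 11098 and 10991 in Pxmp2-/- mice. None of the 8 markers passed the adjusted threshold, 7 had higher means in Pxmp2-/- mice, and Zic1 was below the level filter, at 2.98 to 17.2. The part of brown adipocyte RNA in the member values was not tested.

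The 6 markers listed for white adipocytes shared this order only in part, with other lowest mice but WT 2 and Pxmp2-/- 2 again often highest. Their sum was 76221, 78892 and 72909 in WT and 73795, 78146 and 72799 in Pxmp2-/- mice. WT 3 and Pxmp2-/- 3 were each the lowest of their genotype in 4 of 6. WT 2 was the highest WT mouse in 5 of 6, and Pxmp2-/- 2 the highest of its genotype in 4 of 6. Fabp4, the brightest of them, was at the array maximum in WT 1 (21845) and Pxmp2-/- 2 (21897), where a change may not show. Skeletal muscle, another tissue that burns fat, gave 7 of 10 markers below the level filter, among them Acta1 (25.8 to 41.3 in WT and 27 to 139 in Pxmp2-/- mice). Its sum was 873 to 1054 in WT and 895 to 1384 in Pxmp2-/- mice, with the highest value in Pxmp2-/- 1. That mouse was the highest of its genotype in 8 of 10 markers, but the lowest for Ckm, the brightest of them (484, against 587 and 546). Pxmp2-/- 1 was also the highest of its genotype in 7 of 7 macrophage markers, and in 45.6% of all named genes. The part of skeletal muscle or macrophage RNA in the member values was not tested.

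**Figure D4:**
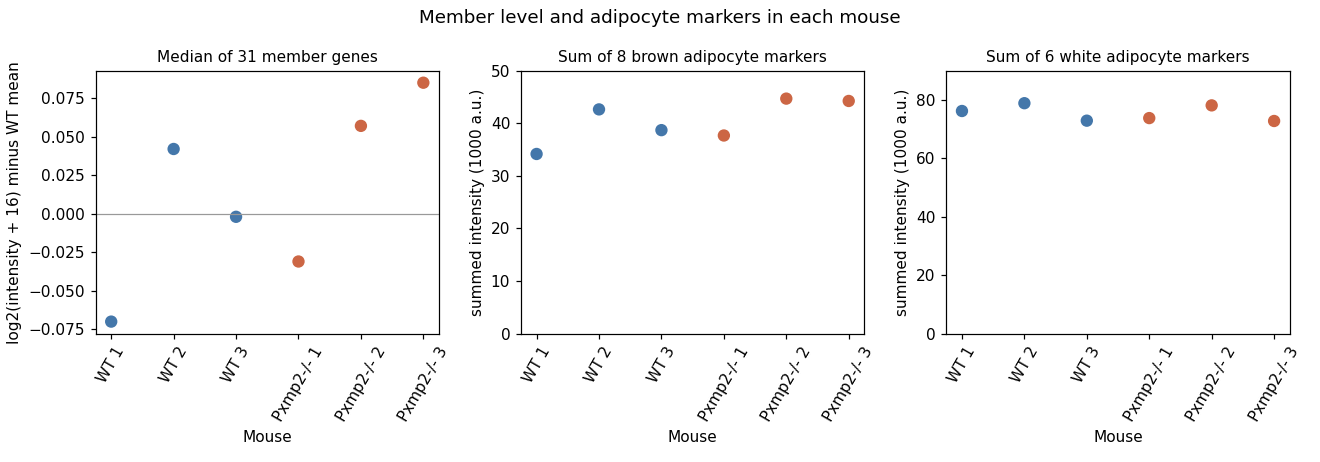
Left, median over 31 member genes in each mouse (log2 of intensity + 16, relative to the WT mean). Middle and right, summed intensity (units of 1000, from 0) of 8 brown and 6 white adipocyte markers, with WT in blue and Pxmp2-/- in orange. WT 1 and Pxmp2-/- 1 are lowest in the left and middle panels. In the right panel WT 3 and Pxmp2-/- 3 are lowest, and WT 2 and Pxmp2-/- 2 are highest, of their genotype.

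Of the tested members, 4 lie on chromosome 5, the chromosome of Pxmp2. In the RefSeq gene order, Acads is 69 and Acad10 147 protein-coding genes from Pxmp2, on one side of it, and Hadha and Hadhb are 538 and 537 genes away on the other. Of 437 tested probe sets within 200 protein-coding genes of Pxmp2, 6 passed the adjusted threshold and 22% had an unadjusted p under 0.05. On the other chromosomes this share was 15.4%, with 5 of 21092 past the adjusted threshold. Without the members on chromosome 5 the median over the genes was 0.0078, against 0.048 with them. The part of chromosomal position in the values of Acads and Acad10 was not tested.

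Genes around the pathway that are no members had 0 of 93 tested probe sets past the adjusted threshold by limma, and 13 (14%) at an unadjusted p under 0.05, against 16.6% of all. Among 10 tested genes of acyl-CoA supply, 1 of 16 probe sets had an unadjusted p under 0.05. It was for the acyl-CoA synthetase gene Acsl4 (0.54 ± 0.17, adjusted p = 0.222), whose probe set 1433531_at was at -0.05. Next by p came Acacb, whose product makes the malonyl-CoA that inhibits CPT1, at -0.19 ± 0.10, and the fatty acid binding protein gene Fabp3, at 0.50 ± 0.35 and -0.12 ± 0.10. Among 24 other mitochondrial acyl-CoA and pyruvate dehydrogenase genes, 8 of 42 probe sets were under 0.05 unadjusted, 2 higher and 6 lower, a lean to lower values that all probe sets showed as well (6.12% higher and 10.5% lower). The phosphatase gene Pdp2, which turns pyruvate dehydrogenase on, differed by -0.48 ± 0.16. The kinase gene Pdk3, which acts the opposite way, differed by 0.33 ± 0.12. Pdk1, another such kinase gene, was split, with -0.57 ± 0.19 in its dimmest probe set 1434974_at (WT mean of 226) and 0.14 ± 0.12, 0.13 ± 0.11 and -0.03 ± 0.10 in the other tested ones. Mccc1, of leucine breakdown, was at -0.25 ± 0.09 in probe set 1458208_s_at and at -0.06 ± 0.10 in 1417227_at. The adjusted p of the 4 probe sets of smallest p lay between 0.23 and 0.256.

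Among 14 tested regulators, 4 of 35 probe sets were under 0.05 unadjusted, 3 higher and 1 lower. Esrrg, an estrogen-related receptor, was split, with 0.45 ± 0.13 in probe set 1455267_at (adjusted p = 0.213) and -0.37 ± 0.16 in 1457896_at. Nrip1, a corepressor of oxidative genes in fat, was split as well, with 0.96 ± 0.34 in 1447211_at, where Pxmp2-/- 1 read 109 and the others 341 and 232, and -0.34 ± 0.17 in 1454295_at. The other tested Nrip1 probe sets lay between -0.13 and 0.26. Foxo1, a forkhead factor of fasting, was also split, at -0.33 ± 0.11 and -0.27 ± 0.13 without overlap in 1416982_at and 1416983_s_at, and at 0.11 ± 0.10 with overlap in 1416981_at. Tfam, which maintains mitochondrial DNA, was at 0.28 ± 0.11 in probe set 1456215_at (adjusted p = 0.262) and at 0.07 ± 0.10 in 1448224_at.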

How the data were processed

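Per the labels' protocols, a lipid tissue kit gave the total RNA and its biotin-labelled product went onto Affymetrix arrays. For the 6 arrays the authors deposited linear intensities. The method that summarised and scaled them was not given in the sources used here. Groups came from the labelled genotype, and 0 columns were left unmatched. Gene symbols came from the platform annotation, checked by Entrez number against RefSeq (GRCm38.p6), which changed 0 of them.

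Values were taken as log2(intensity + 16), and the 27022 probe sets with a mean above the 40th percentile (6.23) were tested with limma 3.58.1 in R 4.3.3 (lmFit, eBayes, two-sided). P-values were adjusted over all of them by Benjamini-Hochberg. SEs and intervals are limma's. Arrays with the same number did not deviate together (correlations of 0.022, 0.044 and -0.12), so the numbers were not taken to pair mice. In simulated data with 200 changed probe sets among 27022, 50.1% of 1.5-fold and 93.7% of 2-fold changes were called. The real comparison had 17 calls, which makes its adjustment stricter, so these shares may be too high for it.

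The members and lists were chosen with earlier results of these data known. Values in every mouse are given for the 10 members of smallest p, those with a probe set at an unadjusted p under 0.05 and step-defining enzymes. From the neighbouring lists the 4 probe sets of smallest p are named, together with the other tested probe sets of the same genes, added after their values were seen. The counts of which mouse was lowest or highest, the neighbouring genes set beside them, and the search for the AGGTCA core, were also chosen after seeing the data. Alternatives were other normalizations, pseudocounts, filters and variance models, 1 probe set per gene, a replicate block and each array left out. Plots were drawn with matplotlib 3.10.9.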

Additional observations from a re-analysis of the deposited data

How the results depend on the processing

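The count of 0 member probe sets past the adjusted threshold held under all 17 alternatives, and the lowest adjusted p of any member was 0.107. Pxmp2 passed in each. Member probe sets at an unadjusted p under 0.05 numbered 9 of 55, where all probe sets gave 4497 of 27022. With no level filter they were 3 of 59, against 5268 of 45037. With 1 probe set per gene they were 3 of 31, against 2096 of 12775. A mean-variance trend gave 16, against 4717 of all, and array weights 15, against 5656. Leaving out single arrays gave 3 to 13, against 2986 to 5600 of all, and medians over the genes of 0.0047 to 0.093. With the replicate number as a block there were 7, against 4012 of all, 0 past the adjusted threshold, and Pxmp2 at -3.18. The block changed no member's call, while over all probe sets it left 1 call in place of 17.

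Of 896 values of single probe sets, 865 kept their direction and 31, in 15 probe sets, reversed. After quantile normalization Acad8 1419261_at turned to 0.02, Cpt2 1447820_x_at to 0.02, Acadsb to 0.02 and Hadh 1455972_x_at to 0.01. With array weights Cpt2 1416772_at turned to 0.02, Acadvl to 0, Acadl 1448988_at to -0.02 and Acadsb to 0.01, and with median centring Decr1 1419367_at to 0. Leaving out arrays gave -0.05 to 0.04 for Cpt2 1416772_at, -0.11 to 0.04 for Cpt2 1447820_x_at, -0.09 to 0.01 for Acad8 1419261_at, -0.02 to 0.05 for Decr1 1419367_at and -0.17 to 0.09 for Ucp3 1420657_at. It gave -0.04 to 0.17 for Acot2 1422996_at, -0.09 to 0.03 for Slc25a20 1423108_at, -0.06 to 0.02 for Acadvl, -0.03 to 0.11 for Acaa2 1428146_s_at, -0.05 to 0.01 for Etfb and -0.05 to 0.16 for Acadl 1448988_at. For Acot1 it was -0.16 to 0.33, for Acadsb -0.07 to 0.08, for Hadh 1455972_x_at -0.03 to 0 and for Cpt1a 1460409_at -0.01 to 0.17. The cause was not tested. None of these differences passed the threshold on all 6 arrays.

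Bright probe sets near the array maxima and dim ones near the filter limit what these arrays can show. With 3 mice per genotype 50.1% of 1.5-fold differences were called in simulated data with 200 changed probe sets. The real comparison had 17 calls and thus a stricter adjustment, so this share is not its own rate. In it the macrophage marker Lyz2, at 0.85 ± 0.10 or 1.8-fold, was not called (limma adjusted p = 0.0589). Uncalled differences in the real data were therefore not limited to those under 1.5-fold.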
